A study of Mus musculus with 4 samples.

Results

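Replication timing was examined at the protocadherin genes of cultured mouse embryonic fibroblasts (MEFs), which are cells of connective tissue. The members were the array probes whose midpoint, on build mm9, lay in 1 of 7 loci: the clustered genes (Pcdha, Pcdhb and Pcdhg) on chromosome 18 from 37000001 to 38100000, and 6 solitary genes. These were Pcdh10 (chromosome 3, 45000001 to 45400000), Pcdh18 (chromosome 3, 49400001 to 49700000), Pcdh17 (chromosome 14, 84700001 to 85100000), Pcdh20 (chromosome 14, 88700001 to 89000000), Pcdh9 (chromosome 14, 93400001 to 94300000) and Pcdh7 (chromosome 5, 58100001 to 58600000). They held 317 of the 170183 probes on autosomes and X, 99 of them in the clustered locus and 218 in the solitary loci, and 316 were usable on all arrays. The intervals are wider than most of the genes, so a value given for a locus covers the gene and its surroundings.

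The study hybridised 4 arrays of 2 colours, 1 for each group. The KO array was labelled as SUV4-20H1 flox deleted, and its reference as control. The other pair was an induced and a non-induced suv4-20h mutant. Suv4-20h enzymes add methyl groups to lysine 20 of histone H4. The protocol attached to all samples describes deletion in one MEF line by 4-hydroxytamoxifen (1 mM for 24 hours), the number of the line is not the same in every label, and how induction was done is not given. Cells took up the nucleotide analogue BrdU (50 µM) for 1 hour, fractions of 80000 cells were sorted from early and from late S phase, and DNA of both was amplified and hybridised together. Timing is log2 of early over late signal, centred on the autosomal median of each array, so a higher value means earlier replication. Because each group has 1 array, the spread between cultures is unknown and groups could not be tested; each SE below is over probes within a locus, takes neighbouring probes as independent, and covers error within an array only.

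Protocadherins are calcium-dependent adhesion proteins of the cell surface and are best known from neurons. In the clustered genes, many variable first exons lie in tandem and, in the alpha and gamma clusters, are joined to shared constant exons, so that single neurons express different sets from chosen promoters. Solitary protocadherins each have a gene of their own, often in gene-poor DNA, and serve in cell sorting, axon growth and synapse formation. In general, transcribed gene-rich DNA replicates early in S phase and silent gene-poor DNA late.

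The gene table at hand, of build GRCm38.p6, names 14 Pcdha, 22 Pcdhb and 22 Pcdhg genes, in the order alpha, beta, gamma from low to high coordinates. Since the arrays are on mm9, single clustered genes were not placed on the profile. The spans of the solitary genes in that table differ widely, from 6.7 kb in Pcdh20 and 14.1 kb in Pcdh18 to 417.1 kb in Pcdh7 and 879.1 kb in Pcdh9. Promoter windows of 300 bases (250 before to 50 after the start) were matched in RefSeq for all 6 solitary genes. The promoters of Pcdh10 and Pcdh20 are shown because these loci had the largest KO minus control differences and the windows differ in CpG content; both run 5′ to 3′ on the strand of the gene, on GRCm38.p6, with CpG dinucleotides in capitals.
Pcdh10, chr3:45378148-45378447, plus strand: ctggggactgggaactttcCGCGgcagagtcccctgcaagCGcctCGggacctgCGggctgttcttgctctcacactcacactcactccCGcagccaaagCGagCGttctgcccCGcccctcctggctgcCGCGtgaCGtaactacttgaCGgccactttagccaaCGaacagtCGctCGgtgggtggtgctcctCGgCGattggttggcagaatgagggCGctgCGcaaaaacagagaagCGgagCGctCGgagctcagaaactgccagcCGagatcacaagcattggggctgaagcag
Pcdh20, chr14:88471347-88471646, minus strand: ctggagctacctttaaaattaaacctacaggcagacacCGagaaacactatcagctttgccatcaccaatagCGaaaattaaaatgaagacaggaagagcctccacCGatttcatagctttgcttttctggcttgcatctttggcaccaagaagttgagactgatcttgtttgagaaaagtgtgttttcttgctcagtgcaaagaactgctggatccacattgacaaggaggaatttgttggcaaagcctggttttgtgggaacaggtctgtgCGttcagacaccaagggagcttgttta

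The Pcdh10 window held 24 CpGs at a GC content of 62.3%, and 80.0% of the 32851 promoter windows in the table held fewer. The Pcdh20 window held 4 CpGs at 43.7% GC, and 31.4% of windows held fewer. The other solitary promoters held 11 in Pcdh7, 18 and 19 in the pair of starts listed for Pcdh9, 23 in Pcdh18 and 26 in Pcdh17, against a median of 7 over all windows. CpG-rich and CpG-poor promoters were thus both present among the loci described below.

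Whole-array values set the scale. Probes were averaged over 200 kb, which gave 12000 windows holding 15 probes at the median, and the 10th to 90th percentile distance over windows was 2.31 on the KO array, 1.81 on control, 2.70 on induced and 2.07 on non-induced. Arrays thus differ in spread, and a late locus has a lower value on an array of wider spread. Both channels were well above background in 88.5 to 94.7% of genomic spots. Of 122 probes on chromosome Y, 106 were well above background in both channels on the KO array against 50 on control, and 41 on induced against 53 on non-induced; the part of this in the values below was not tested, and all protocadherin loci are autosomal. KO and control shared 1 slide, and induced and non-induced shared another.

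The clustered protocadherin genes lay in a short late-replicating stretch inside an early-replicating domain. The 1 Mb before the locus had a mean timing of 0.83 ± 0.06 (SE over 87 probes) on the KO array, 0.88 ± 0.05 on control, 1.10 ± 0.07 on induced and 0.96 ± 0.08 on non-induced. The 1 Mb after it had 0.81, 0.90, 1.09 and 0.93 on the same arrays. Between these flanks, timing dropped below 0 over 0.88 Mb on the KO array, 0.76 Mb on control, 0.73 Mb on induced and 0.73 Mb on non-induced, as interpolated between bins of 100 kb.

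The lowest 100 kb bin reached -1.57 ± 0.12 on the KO array, in the bin from 37300001 to 37400000. The next bin, from 37400001 to 37500000, was the lowest on the other arrays, at -1.30 ± 0.15 on control, -1.24 ± 0.06 on induced and -1.07 ± 0.08 on non-induced. In the late part from 37200001 to 37800000, an interval set after the profile was seen, the 55 probes averaged -1.40 ± 0.06 on KO, -0.90 ± 0.06 on control, -0.87 ± 0.06 on induced and -0.69 ± 0.07 on non-induced. This late part lay below its flanks by -2.21 on KO, -1.78 on control, -1.97 on induced and -1.64 on non-induced. Under the 10 alternative processings this difference was -2.29 to -1.48 over the arrays. Since the interval was picked from this profile, and re-centring cannot change the difference, the range describes its size and is not a check of the late stretch. The mean of the whole locus, -0.78 on KO, -0.40 on control, -0.32 on induced and -0.22 on non-induced, mixes this late stretch with early edges: 34 of 99 probes were above 0 on control, against 18 on KO.

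**Figure D1:**
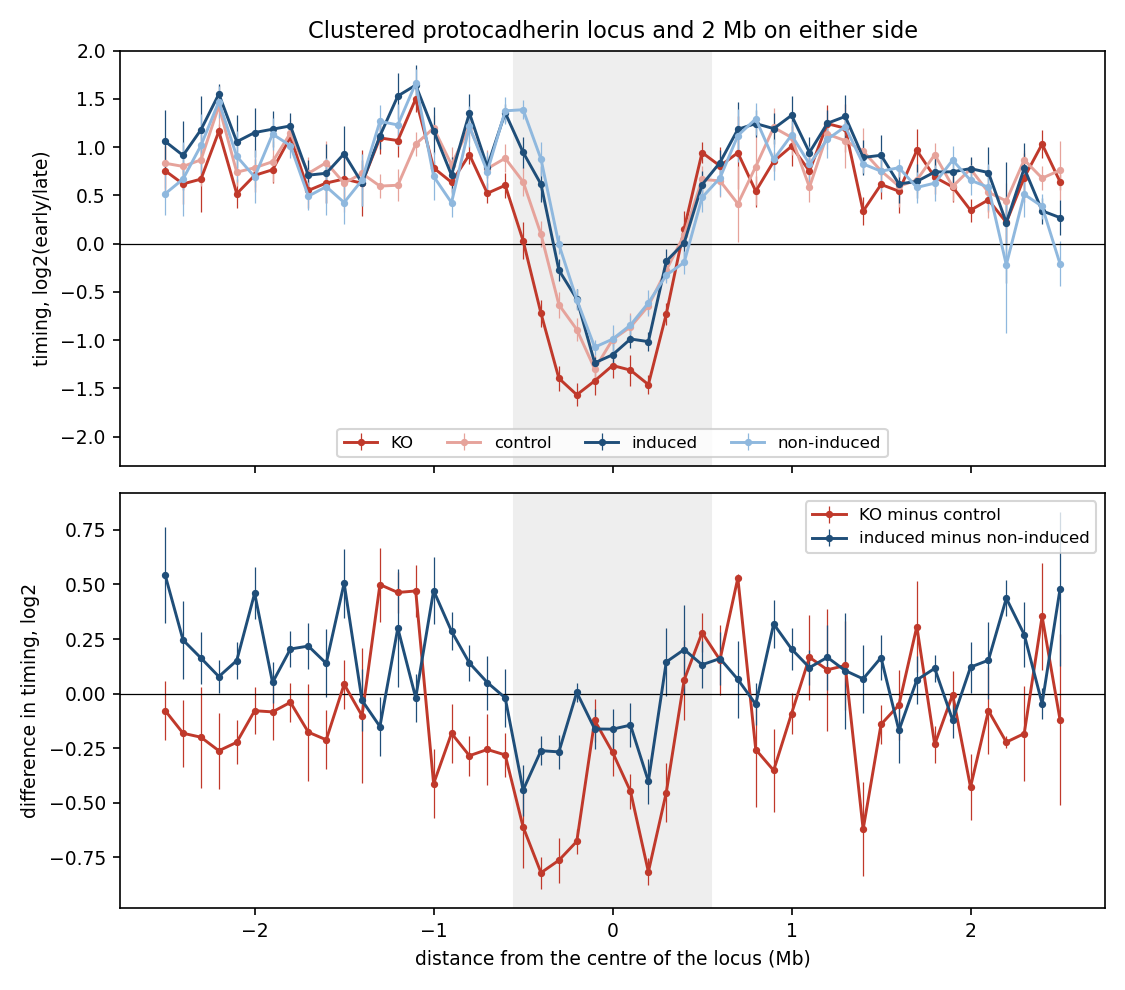
Timing (log2 of early over late signal) in bins of 100 kb across the clustered protocadherin locus (grey, 1.1 Mb) and 2 Mb on either side, on each array (top), and the KO minus control and induced minus non-induced differences (bottom); bars are SE over probes. All arrays drop below 0 inside the locus and return above 0 on both sides, and the KO minus control difference is at its lowest inside the locus, at -0.82.

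Stretches of this shape occurred elsewhere. With a definition set after the profile was seen (a run of windows below 0 of at most 1.2 Mb, with a lowest window under -0.5 and a mean over 0.5 in the 1 Mb on each side), 65 were found on the KO array, 43 on control, 57 on induced and 60 on non-induced, and 16 overlapped on all arrays, the clustered locus among them. Its lowest window was -1.47 on KO and -1.15 on control, where 7 and 2 such stretches reached lower. On induced and non-induced, with -1.20 and -1.03, 28 and 32 reached lower.

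With the main processing, the solitary genes had mean timing below 0 on every array, and unlike the clustered locus they lay in broad stretches below 0 on the KO and induced arrays. With normexp background correction, Pcdh10 turned to 0.13 on induced and 0.14 on non-induced, and Pcdh20 to 0.085 on non-induced. Pcdh17 on control turned to 0.040 when centred on windows and to 0.063 over even probes. Pcdh18, which encodes a delta-type protocadherin, had the lowest mean on control, induced and non-induced. Its mean timing was -1.33 ± 0.14 on KO, -1.08 ± 0.08 on control, -1.81 ± 0.13 on induced and -1.28 ± 0.09 on non-induced (SE over 17 probes), and none of its probes was above 0 on any array. Of all windows, 12.3% on KO, 3.9% on control, 4.0% on induced and 4.6% on non-induced were lower than this locus.

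Pcdh7, which encodes a delta-type protocadherin of neurons, was the next latest on control, induced and non-induced. It averaged -1.23 ± 0.08 on KO, -0.84 ± 0.06 on control, -1.54 ± 0.12 on induced and -1.05 ± 0.10 on non-induced (SE over 43 probes). Its 100 kb bin from 58500001 to 58600000 was its earliest on all arrays, at -0.63 on KO, -0.60 on control, -0.78 on induced and -0.64 on non-induced, so the locus was not uniform.

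The other 4 solitary loci lay near the middle of the range on control. Pcdh10, whose protein is known for a role in axon growth, had -1.51 ± 0.10 on KO, -0.23 ± 0.10 on control, -0.96 ± 0.15 on induced and -0.29 ± 0.10 on non-induced (SE over 23 probes). Pcdh20 had -1.35 ± 0.22 on KO, -0.25 ± 0.10 on control, -1.52 ± 0.36 on induced and -0.36 ± 0.17 on non-induced (SE over 13 probes). At both loci the KO and induced arrays were the low ones and the references were close to each other, with the main processing. With normexp, induced was above control at both, at 0.13 against -0.25 at Pcdh10 and -0.14 against -0.20 at Pcdh20.

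Pcdh17, whose protein is known from synapses of the basal ganglia, had -0.88 ± 0.13 on KO, -0.09 ± 0.06 on control, -0.65 ± 0.18 on induced and -0.44 ± 0.09 on non-induced (SE over 24 probes). Pcdh9, the longest of the solitary genes, had -0.86 ± 0.06 on KO, -0.23 ± 0.04 on control, -1.10 ± 0.07 on induced and -0.75 ± 0.05 on non-induced (SE over 97 probes). At these loci the non-induced array was itself lower than control.

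**Figure D2:**
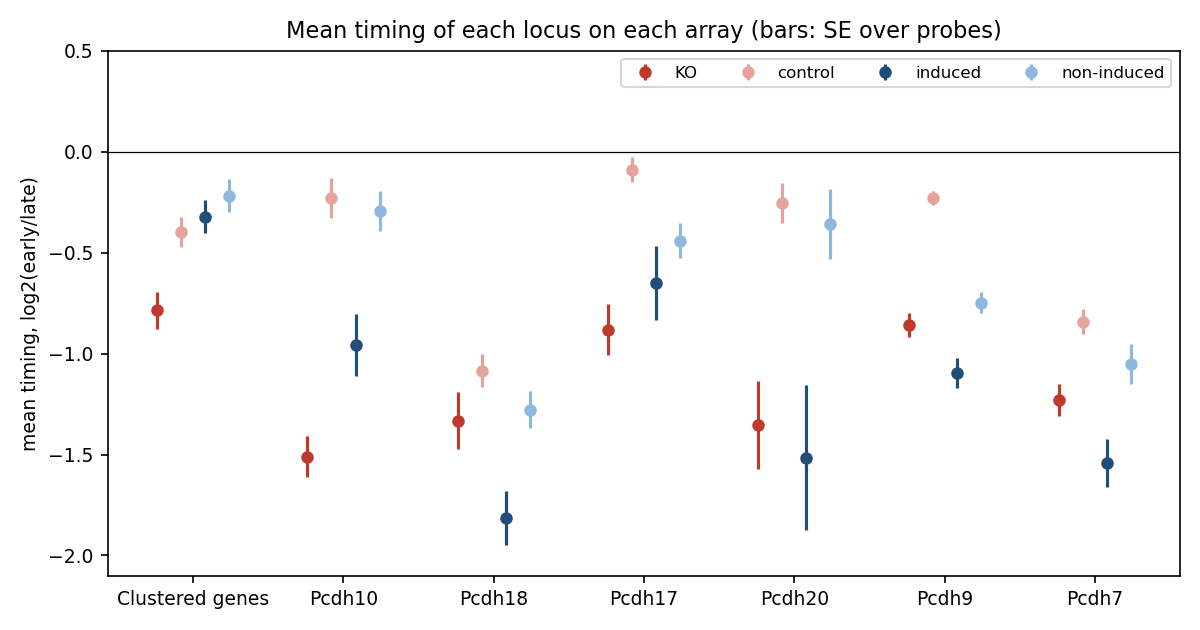
Mean timing of each protocadherin locus (log2 of early over late signal) on the KO, control, induced and non-induced arrays; points are means and bars SE over probes. Pcdh18 and Pcdh7 are low on all arrays, while Pcdh10 and Pcdh20 are low on the KO and induced arrays and lie between -0.36 and -0.23 on the references.

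In the order of levels on control, from Pcdh18 through Pcdh7, the clustered locus, Pcdh20, Pcdh9 and Pcdh10 to Pcdh17, the steps from Pcdh18 to Pcdh7 (0.24) and from Pcdh7 to the clustered locus (0.45) exceeded 2 SE over probes. The remaining neighbours in that order did not differ beyond 2 SE. On KO only the step from Pcdh7 to Pcdh17 (0.35) did, and on induced no step did. On non-induced the steps from Pcdh7 to Pcdh9 (0.31) and from Pcdh9 to Pcdh17 (0.31) did.

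On some arrays, solitary loci on the same chromosome lay in 1 run of windows below 0. Being below 0 is not the same as late, since the window median was -0.39 on KO, -0.16 on control, -0.51 on induced and -0.26 on non-induced. The runs around Pcdh10 on non-induced (mean -0.15) and Pcdh17 on control (-0.10) were above the window median. On the KO array, consecutive measured windows stayed below 0 from 41400001 to 50800000 on chromosome 3, a run of 9.4 Mb that holds both Pcdh10 and Pcdh18; on control a run of 6.0 Mb, from 44800001 to 50800000, also held both. Also on KO, a run of 19.6 Mb on chromosome 14, from 80000001 to 99600000, holds Pcdh17, Pcdh20 and Pcdh9, where these 3 loci lay in separate runs on control, of 0.2, 5.8 and 2.6 Mb. On the induced array the runs around these loci were 9.4 Mb on chromosome 3 and 23.2 Mb on chromosome 14, against 1.6 Mb around Pcdh10, 4.2 Mb around Pcdh18, 6.2 Mb around Pcdh17 and Pcdh20 and 6.8 Mb around Pcdh9 on non-induced. Around Pcdh7 the run was 9.6 Mb on KO against 2.0 Mb on control, and 9.6 Mb on induced against 3.6 Mb on non-induced. The solitary loci are therefore not independent of each other, and run lengths depend on where each array is centred.

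**Figure D3:**
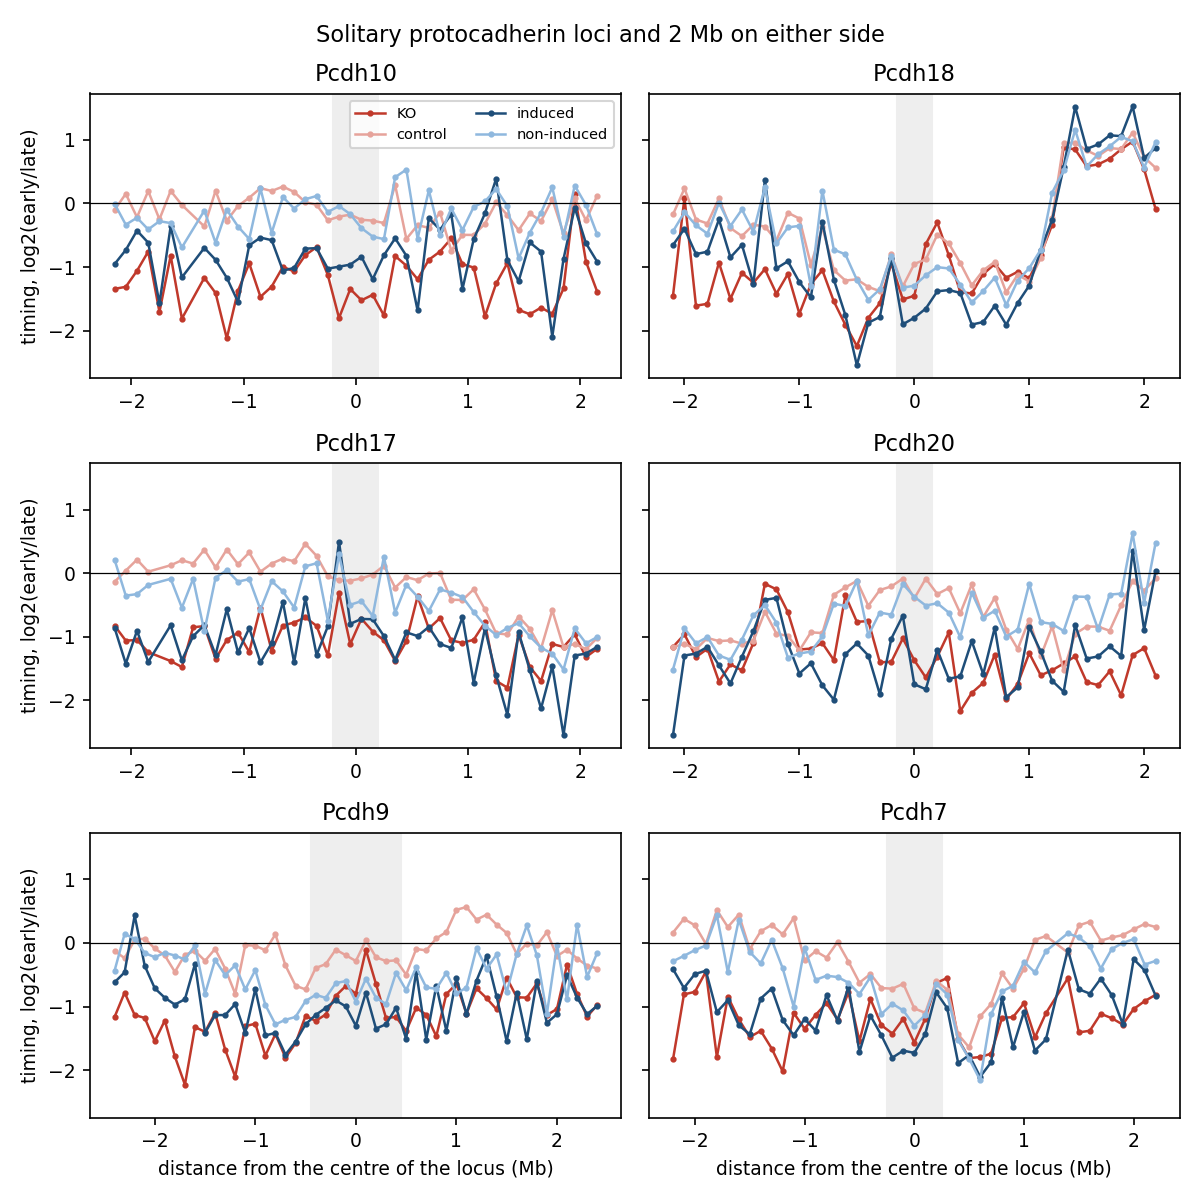
Timing (log2 of early over late signal) in bins of 100 kb across each solitary protocadherin locus (grey) and 2 Mb on either side, on each array. Inside the shaded loci the KO array lies below control in every bin of Pcdh10 (4 bins), Pcdh17 (4), Pcdh20 (3), Pcdh9 (9) and Pcdh7 (5) and in 2 of 3 bins of Pcdh18, and all arrays are low together at Pcdh18, with the step to values above 0 on its right side. This is not particular to the loci. Over the whole panels KO lies below control in 41 of 43 bins (Pcdh10), 37 of 43 (Pcdh18), 41 of 43 (Pcdh17), 36 of 43 (Pcdh20), 49 of 49 (Pcdh9) and 43 of 44 (Pcdh7).

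Set against each other, the clustered locus had a higher mean than the solitary loci on KO, induced and non-induced, while on control the difference was within its error; its size depended on what was counted. The clustered mean was -0.78 and the solitary mean, weighting the 6 loci equally, -1.19 ± 0.27 (SD over loci) on KO, a difference of 0.41. On control they were -0.40 and -0.45 ± 0.41, a difference of 0.059 with an SE of 0.18, and there only Pcdh18 and Pcdh7 lay below the clustered locus. Without Pcdh18 that difference was -0.067 and without Pcdh7 -0.019. On induced they were -0.32 and -1.26 ± 0.43, a difference of 0.94. On non-induced they were -0.22 and -0.69 ± 0.40, a difference of 0.48. All 6 solitary loci lay below the clustered mean on KO, induced and non-induced, but the nearest of them was within 2 SE over probes. This order did not hold under every processing. With loess, Pcdh17 (-0.66) and Pcdh9 (-0.80) lay above the clustered locus (-0.82) on KO. With normexp, Pcdh10 (0.13), Pcdh17 (-0.06) and Pcdh20 (-0.14) lay above the clustered locus (-0.44) on induced. On non-induced, Pcdh10 (0.14), Pcdh20 (0.085) and Pcdh17 (-0.14) lay above it (-0.30) with normexp. With loess, Pcdh10 (-0.12) and Pcdh20 (-0.21) lay above it (-0.27) on non-induced. The order also failed on KO with normexp and on induced with loess. On KO and non-induced it failed too over probes well above background and over even probes. With the clustered locus limited to its late part from 37200001 to 37800000, the difference turned to -0.20 on KO, was -0.44 on control and 0.0048 on non-induced, and stayed above 0 on induced, at 0.39. With normexp background correction the differences were 0.078 on KO, 0.13 on induced and 0.11 on non-induced.

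The KO and control arrays compare cells with and without the labelled deletion. Timing was lower on the KO array at all 7 loci. The 1 Mb flanks of every solitary locus were also lower on KO. Before Pcdh9 they stood at -1.52 on KO against -0.31 on control, and before Pcdh17 at -0.91 against 0.23. A locus or window was called later where the difference was at least 0.25 of the reference array's 10th to 90th percentile distance (0.45 for KO minus control) and at least 3 SE. Pcdh10, Pcdh20, Pcdh17 and Pcdh9 were called later, with differences of -1.28 ± 0.12, -1.10 ± 0.25, -0.79 ± 0.10 and -0.63 ± 0.06 (SE over probes). Timing was lower on KO at 23 of 23 probes of Pcdh10, 24 of 24 of Pcdh17, 12 of 13 of Pcdh20 and 85 of 97 of Pcdh9. The share over all probes was not computed, neighbouring probes may vary together, and the median window was itself lower on KO, at -0.16. Pcdh10 and Pcdh20 stayed past 0.45 under the 10 alternative processings, at -0.62 or lower. Pcdh17 fell short of it with normexp, at -0.24, and Pcdh9 with normexp, at -0.43, when centred on windows, at -0.44, and with quantile normalization, at -0.446. Locus values were held against 0.45 under every alternative, whereas the window calls took the size anew. Scaling arrays to the same spread widens control, which raises the size needed, and Pcdh9, at -0.54 there, was short of that raised size. The clustered locus as a whole, at -0.39 ± 0.05, Pcdh7, at -0.39 ± 0.07, and Pcdh18, at -0.25 ± 0.11, were not called. With loess each of them was past 0.45, at -0.50, -0.51 and -0.454. Over probes well above background the clustered locus was past it too, at -0.49. Which loci pass the size thus depended on the processing in both directions.

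Of the 15 windows of 200 kb that fell in the solitary loci, 12 were called later on KO, and of 6 in the clustered locus 3 were, where 22.2% of all windows were called later; none of these 21 windows was called earlier, where 8.02% of all were. Among windows with mean timing below 0 on the induced and non-induced arrays, which this comparison does not use, 34.7% were called later, and 12 of 15 solitary and 2 of 4 clustered windows of that kind. The median difference was -0.81 over the solitary and -0.39 over the clustered windows, against -0.16 over all windows. With arrays scaled to the same spread, 8 of 15 solitary and 1 of 6 clustered windows were called, where 13.7% of all windows were. Pcdh18 then turned to 0.050, and with quantile normalization it stood at 0.24 and Pcdh7 at 0.013.

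Inside the clustered locus the KO minus control difference was uneven. On the low-coordinate side, from 37000001 to 37400000, timing averaged -1.02 ± 0.12 on KO and -0.28 ± 0.12 on control, and all 33 probes were lower on KO, by a mean of -0.74 ± 0.05. On the floor of the late stretch, from 37400001 to 37700000, the difference was -0.29 ± 0.06 over 30 probes. On the high-coordinate side, from 37700001 to 38100000, it was -0.16 ± 0.10 over 36 probes, a mean of unlike bins: the bin from 37700001 to 37800000 was at -0.82 ± 0.06, close to the lowest bin of the low side (-0.82 ± 0.07), and the bin from 38000001 to 38100000 at 0.28 ± 0.09. These sections were set after the profile was seen. The level crossed 0 at 37.05 Mb on KO against 37.16 Mb on control on the low side, and at 37.93 Mb on both arrays on the high side. The low-side difference was -0.85 to -0.52 under the 10 alternative processings.

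**Figure D4:**
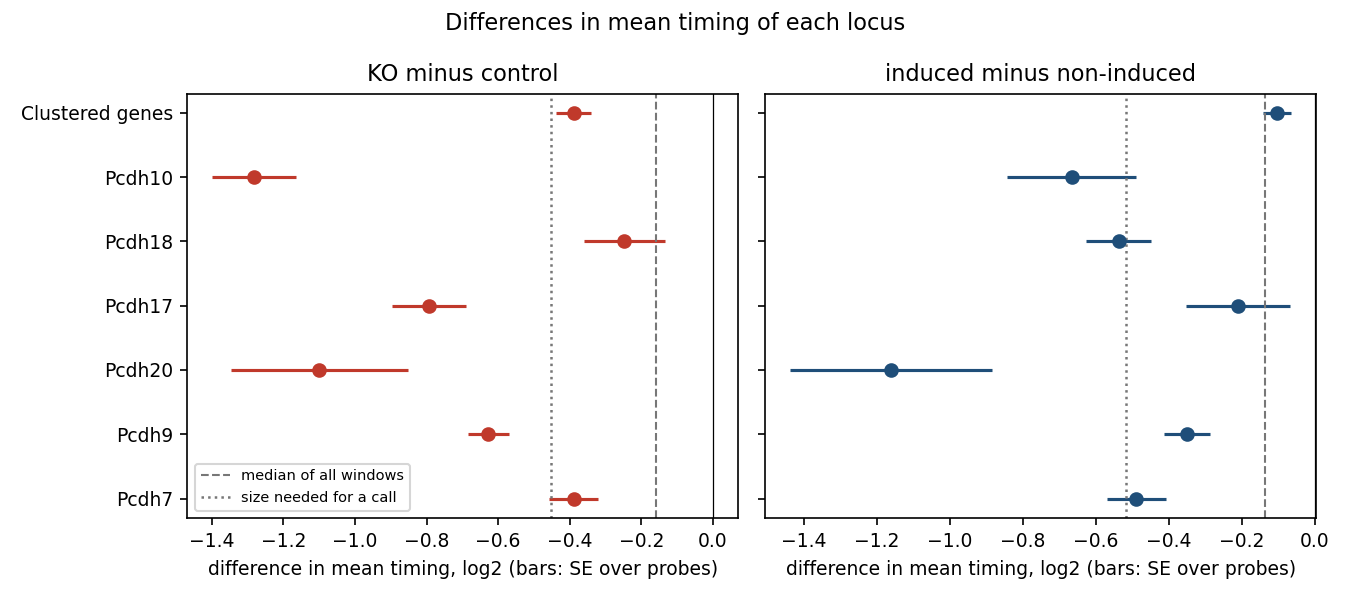
Difference in mean timing (log2) of each protocadherin locus for KO minus control (left) and induced minus non-induced (right); points are means over probes and bars SE. The dashed line is the median of all windows (-0.16 left, -0.13 right) and the dotted line the size needed for a call; Pcdh10 and Pcdh20 lie past it in both panels.

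Induced and non-induced mutant cells were compared in the same way, with a size of 0.52 needed for a call. Pcdh20, Pcdh10 and Pcdh18 were called later, with differences of -1.16 ± 0.28, -0.67 ± 0.18 and -0.54 ± 0.09. Each fell short of 0.52, a size kept under every alternative, in some of them. Pcdh18 was at -0.12 with arrays scaled to the same spread, 0.0072 with quantile normalization, -0.33 with normexp, -0.51 with loess, -0.335 when centred on windows and -0.41 over odd probes. Pcdh10 was at -0.47, -0.42, -0.015, -0.37, -0.46 and -0.42 under the same alternatives. Pcdh20 fell short with normexp, at -0.22, and over probes well above background, at -0.43. Pcdh7, at -0.49 ± 0.08, Pcdh9, at -0.35 ± 0.06, Pcdh17, at -0.21 ± 0.14, and the clustered locus, at -0.10 ± 0.04, were not called. Of the windows, 6 of 15 solitary and 0 of 6 clustered were called later, where 11.9% of all windows were, and none was called earlier, where 0.467% of all were. Among windows with mean timing below 0 on the KO and control arrays, 20.0% were called later, as were 6 of 15 solitary and 0 of 5 clustered windows of that kind. With arrays scaled to the same spread, 2 of 15 solitary windows were called, where 1.87% of all were.

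Dim signal touches these values. In the early channel of the induced array, 52.2% of Pcdh10 spots and 46.2% of Pcdh20 spots were well above background, against 65.2% and 84.6% on non-induced, and 99.0% against 98.1% at the clustered locus. A ratio from a probe that is not well above background is only a bound. Over the 12 Pcdh10 probes well above background on all arrays, induced minus non-induced timing was -0.25, and over the 6 such Pcdh20 probes it was -0.43; both are under the size needed for a call. For KO minus control these probes gave -1.15 at Pcdh10 and -0.78 at Pcdh20, past that size. At Pcdh18, 16 of 17 probes were well above background on all arrays and gave -0.59 for induced minus non-induced.

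The channels behind the ratios differed between loci. Early signal, as log2 relative to the array's autosomal median, was -1.74 ± 0.23 on KO and -0.46 ± 0.18 on control at Pcdh10, while late signal was -0.30 ± 0.21 and -0.25 ± 0.25. At Pcdh10 the early signal was lower on KO and the late signals were within their SE of each other. On the induced and non-induced arrays both channels were low at Pcdh10: early signal was -2.46 and -2.05, and late signal -1.50 and -1.70. At Pcdh17, early signal was -1.66 ± 0.31 on KO and -0.50 ± 0.25 on control, and late signal -0.84 ± 0.27 and -0.43 ± 0.24. Both means were lower on KO, the late ones with overlapping SE. At Pcdh9, early signal was -0.63 ± 0.15 on KO and -0.34 ± 0.12 on control, and late signal 0.16 ± 0.13 and -0.13 ± 0.12. The channel means thus moved in opposite directions, each by more than either SE. Every SE of a channel is over probes of 1 array and does not pair the probes shared by the arrays. At the clustered locus, early signal was 0.044 on KO and 0.27 on control, and late signal 0.76 and 0.64.

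**Figure D5:**
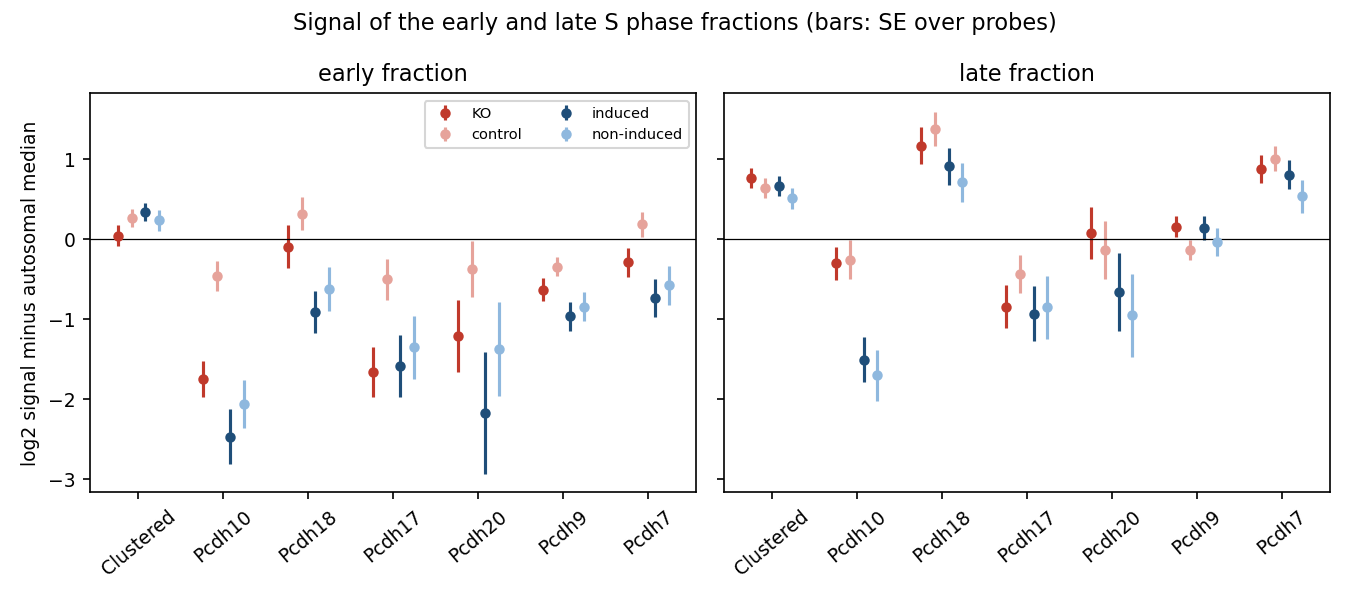
Mean log2 signal of the early (left) and late (right) fraction at each protocadherin locus, relative to the autosomal median of that channel and array; bars are SE over probes. Pcdh10 is low in both fractions on the induced and non-induced arrays, and on the KO array it is at -1.74 in the early and -0.30 in the late fraction.

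The non-induced and control arrays, neither labelled as deleted or induced, also differed at these loci, and here slide and cells cannot be told apart. Pcdh9 was called later on non-induced, at -0.52 ± 0.05, and 4 of its 5 windows were, where 10.8% of all windows were called later. Pcdh17 was at -0.35 ± 0.10, and Pcdh10, at -0.064 ± 0.12, and Pcdh20, at -0.10 ± 0.18, were close to 0 with the main processing. With normexp Pcdh10 and Pcdh20 were at 0.40 and 0.28, and with loess at 0.19 and 0.13. Pcdh10 was at -0.32 over odd and 0.22 over even probes. In the clustered locus, 2 of 6 windows were called earlier on non-induced, where 8.17% of all were, and both lie on the low-coordinate side, where the mean difference was 0.61 ± 0.07. The KO minus control difference on that side was -0.74. With non-induced in place of control, the KO array gave -1.22 at Pcdh10, -0.996 at Pcdh20, -0.44 at Pcdh17, -0.11 at Pcdh9 and -0.57 at the clustered locus. The clustered difference was then more negative than the solitary mean difference, by -0.068, where the SE with control as reference was 0.17.

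Windows most like the clustered locus were sought by the distance between their means and its mean over the 4 arrays. The closest outside 35 to 40 Mb of chromosome 18 was on chromosome 7 from 123800001 to 124000000, with -0.78 on KO, -0.42 on control, -0.23 on induced and -0.23 on non-induced and a distance of 0.095 log2. The next were on chromosome 7 from 65200001, chromosome 1 from 179800001, chromosome 5 from 5000001 and chromosome 4 from 139600001, at distances of 0.12 to 0.15. In all, 45 of 11975 windows lay within 0.25. Such likeness rests on 4 values each and, since the clustered mean mixes late and early probes, not on a shared profile.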

How the data were processed

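Replication timing was measured on 4 arrays of 2 colours, 1 per group, grouped by the genotype labels. Per the file headers, Agilent Feature Extraction 11.5.1.1 read the spots (the submitters' processing notes name 9.1), and the deposited processed signals are intensity values after background subtraction, detrending and a linear dye factor. Per the file headers, the log10 ratio in each file is red over green, here late over early. The deposited value table matched these log10 values digit for digit on every array, over 180880 spots each. They differed by over 0.01 log2 from the ratio of the processed signals in 50 to 236 of 174305 genomic spots per array, none of them well above background in both channels. Dyes were not swapped.

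From the processed signals, log2 of early over late was computed. Control spots (6575) and spots with outlier flags (154 to 447 per array) were dropped, repeated spots were averaged to 1 value per probe, and the autosomal median was set to 0 on each array. Windows of 200 kb needed 5 usable probes. A window counted as a member where at least 50% of its probes did. The calling rule was also run on simulated data with independent noise for each probe, which does not cover neighbouring probes that vary together. Intensities on median signals replaced mean signals in the normexp alternative, since the files used here hold medians. Every locus was named whatever its values, and 5 windows by likeness. Members, lists and rules were chosen with earlier results of these data known. Other protocadherin genes and factors acting on the clusters were not placed on mm9 and are not analysed here. The number of arrays limits the precision. Software was R 4.3.3 with limma 3.58.1, and Python 3.11.15 with pandas 2.3.3, numpy 2.4.6 and matplotlib 3.10.9.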

Additional observations from a re-analysis of the deposited data

How the results depend on the processing

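Of 453 recomputed values, 23 changed sign: 9 of the 243 that answer a comparison and 14 of the 210 for single solitary loci. Among those 243, 201 stayed within the error or tolerance set for them, 36 moved beyond it and 6 turned from a value beyond its error. Some alternatives cannot change some values: re-centring leaves clustered minus solitary timing as it was. No paired analysis was possible because each group has 1 array. With arrays scaled to the same spread, the KO minus control difference of the clustered locus was -0.27 and the solitary mean for induced minus non-induced -0.29; 16.7% of clustered windows were later on KO (13.7% of all windows) and 13.3% of solitary windows later on induced (1.87% of all). With quantile normalization these were -0.13, -0.21, 16.7% and 6.67%, 46.7% of solitary windows were later on KO (all windows: 9.47% on KO, 1.14% on induced), induced minus non-induced turned to 0.035 at the clustered locus and 0.0072 at Pcdh18, and non-induced minus control was 0.30 at the clustered locus.

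With normexp, clustered minus solitary timing was 0.078 on KO, 0.13 on induced and 0.11 on non-induced; the solitary mean was -0.40 for KO minus control, -0.15 for induced minus non-induced and turned to 0.017 for non-induced minus control; clustered minus solitary was 0.016 for induced minus non-induced and 0.061 for non-induced minus control. With loess, the clustered locus was at -0.50 for KO minus control and 0.057 for non-induced minus control, where clustered minus solitary was 0.21. Centred on windows, the clustered locus was at -0.21 for KO minus control and turned to 0.098 for induced minus non-induced. Over probes well above background, the clustered locus was at -0.49 for KO minus control, clustered minus solitary at 0.19 for induced minus non-induced, and 13.3% of solitary windows were later on induced (7.12% of all). With medians over probes the clustered locus was at -0.58 for KO minus control.

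With the clustered locus limited to its late part (37200001 to 37800000), chosen after seeing the data, clustered minus solitary was -0.20 on KO, -0.44 on control, 0.39 on induced and 0.0048 on non-induced, and the clustered differences were -0.50 for KO minus control and -0.18 for induced minus non-induced. Against the other reference array, the clustered locus was at -0.57 for KO, where clustered minus solitary turned to -0.068, and at 0.0745 for induced, where clustered minus solitary was 0.88. A threshold of 0.35 called 33.3% of clustered windows later on KO (14.9% of all) and 13.3% of solitary windows on induced (5.32% of all). Windows of 100 kb called 52.4% of solitary windows on KO (15.5% of all) and 19.0% on induced (7.22% of all). Clustered minus solitary on control changed sign without Pcdh18, at -0.067, and without Pcdh7, at -0.019. The causes were not tested.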
